A study of Mus musculus with 246 samples.

Results

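The oligodendrocyte lineage and myelin genes are 32 genes chosen by symbol, out of 56691 genes in the deposited table, of which 21915 were protein-coding. They cover the precursor cell, the differentiating cell, the transcription factors of the lineage and the proteins, lipid enzymes and channels of the myelin sheath. RNA was sequenced from 6 brain regions of 41 adult male CD1 mice, an outbred strain, with 20804247 to 43351424 counts per library. The cortical punches were the mPFC (medial prefrontal cortex, its prelimbic and infralimbic areas) and the ACC (anterior cingulate cortex). The others were the dorsomedial thalamus (DMT), the ventral hippocampus (vHipp), the BLA (basolateral amygdala) and the nucleus accumbens (Nacc). The methods of the study give the Nacc punch as the shell, while its introduction names the core. Pups of the ELA groups were raised with limited bedding and nesting material from the second to the ninth postnatal day (early life adversity, ELA), and the dams received on the second postnatal day an injection of SAFit2, an inhibitor of the stress-related co-chaperone FKBP51, in a slow-release gel, or of the gel alone (Veh). The conditions were Ctrl_Veh, ELA_Veh and ELA_SAFit2, each with one set of adult offspring taken without a social encounter (NoInteraction) and one set taken after an interaction of 10 min with an unfamiliar mouse (SocialInteraction), with 7 mice per condition and set except 6 Ctrl_Veh mice in the SocialInteraction set. The drug reached the pups through the milk of the dam, only male offspring were sequenced, and tissue came from punches of both hemispheres pooled per mouse and region, so every library held all cells of the punch.

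In the central nervous system, oligodendrocyte precursor cells divide throughout life, stop dividing and pass through a short differentiating stage, and become mature oligodendrocytes that wrap axons in myelin. The precursor carries the receptor Pdgfra and the proteoglycan Cspg4, the differentiating cell carries Gpr17, Bcas1 and Enpp6, and the mature cell makes large amounts of Mbp, Mobp, Mag and Mog, driven by Sox10 and Myrf. Olig1 and Olig2 are present along the whole lineage. In bulk samples, fewer cells of a type and less RNA per cell cannot be told apart.

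Promoter sequences were read for the genes whose pattern the results turn on: Mog, Mobp and Cnp as myelin genes that varied together, Opalin and Cspg4 as genes that differed after the social interaction, and Pdgfra as the precursor gene that varied apart from Mog. Each run is the stretch of 250 bases before the transcription start in RefSeq, 5′ to 3′ on the strand of the gene, on build GRCm38.p6. Capitals mark the SOX core (ACAAAG, or CTTTGT on the other strand) and the letters searched for MYRF (CTGGCAC, or GTGCCAG on the other strand). The stretches lie at chr17:37023399-37023648 for Mog (minus strand), chr9:120149492-120149741 for Mobp (plus strand), chr11:100574689-100574938 for Cnp (plus strand), chr19:41077114-41077363 for Opalin (minus strand), chr5:75152001-75152250 for Pdgfra (plus strand) and chr9:56864854-56865103 for Cspg4 (plus strand).
Mog: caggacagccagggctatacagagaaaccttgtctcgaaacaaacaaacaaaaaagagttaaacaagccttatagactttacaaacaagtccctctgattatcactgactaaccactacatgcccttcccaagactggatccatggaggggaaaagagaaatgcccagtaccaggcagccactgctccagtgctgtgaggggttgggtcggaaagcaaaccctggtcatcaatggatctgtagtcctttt
Mobp: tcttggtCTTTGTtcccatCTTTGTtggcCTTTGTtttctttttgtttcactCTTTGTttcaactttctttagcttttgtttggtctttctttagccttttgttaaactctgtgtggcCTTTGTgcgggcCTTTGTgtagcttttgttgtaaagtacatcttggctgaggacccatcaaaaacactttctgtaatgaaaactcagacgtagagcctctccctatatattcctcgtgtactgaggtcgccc
Cnp: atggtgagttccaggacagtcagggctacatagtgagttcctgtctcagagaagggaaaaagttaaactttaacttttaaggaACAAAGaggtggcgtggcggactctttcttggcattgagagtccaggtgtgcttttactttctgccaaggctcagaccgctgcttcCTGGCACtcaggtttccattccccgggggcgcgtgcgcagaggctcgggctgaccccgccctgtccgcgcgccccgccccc
Opalin: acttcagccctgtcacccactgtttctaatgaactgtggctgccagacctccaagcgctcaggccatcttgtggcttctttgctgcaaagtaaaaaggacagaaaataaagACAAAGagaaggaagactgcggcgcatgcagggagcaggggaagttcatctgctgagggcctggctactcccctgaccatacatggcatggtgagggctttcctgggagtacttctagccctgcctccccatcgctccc
Pdgfra: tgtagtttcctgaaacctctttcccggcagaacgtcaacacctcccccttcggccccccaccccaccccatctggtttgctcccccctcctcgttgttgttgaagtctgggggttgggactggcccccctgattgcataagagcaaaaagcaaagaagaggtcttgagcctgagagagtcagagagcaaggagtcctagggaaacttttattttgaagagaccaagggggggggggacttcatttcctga
Cspg4: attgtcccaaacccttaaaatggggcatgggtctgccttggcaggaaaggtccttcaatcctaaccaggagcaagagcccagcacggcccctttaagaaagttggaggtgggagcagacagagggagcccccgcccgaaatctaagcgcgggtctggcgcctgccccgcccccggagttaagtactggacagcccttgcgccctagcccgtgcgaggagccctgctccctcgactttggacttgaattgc

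The Mobp stretch held 6 SOX cores, Cnp held 1 SOX core and 1 set of MYRF letters, Opalin held 1 SOX core, and the stretches of Mog, Pdgfra and Cspg4 held neither. Among the 22 genes of the group with a RefSeq promoter window of 250 bases before and 50 bases after the start, 7 held the SOX core on either strand, beside 21% of 27025 genes. The E-box letters CAGCTG were in the windows of 3 and CATATG of 2, beside 18.3% and 4.48% of all genes. The MYRF letters were in the windows of 4 genes, beside 5.73% of all genes. A match of letters is a description and not a binding site.

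The libraries were first compared with their labels. Region genes stood high in the labelled region: the summed level of 4 thalamic genes averaged 2048.9 CPM (counts scaled to the size of the library) in the DMT and at most 102.8 in the other regions, and 5 striatal genes averaged 1566.7 CPM in the Nacc. A set of choroid plexus genes averaged 2453.7 CPM in the BLA libraries, with a range from 31.5 to 5766.0, against 4.66 to 201.6 CPM as averages of the other regions. In a match of each library to the mouse it resembled in the other regions, 12 Nacc libraries resembled another mouse than the labelled one, and 1 ACC library did so by a small margin. Each of the 12 matched a mouse of another condition or set. Their r was -0.206 to 0.24 with the labelled mouse and 0.882 to 0.975 with the match. The Nacc values of the condition comparisons keep these libraries under their labels. For the comparisons between regions and after social interaction that use the Nacc, values or counts without those 12 libraries stand beside those with all libraries. The library names of the mPFC, except the last, come from an earlier run of numbers than those of the ACC, Nacc and BLA. The names of the DMT libraries begin directly after those of the BLA. The part of this numbering in the differences from the mPFC, that of the DMT among them, was not tested.

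The first comparison asked how the levels of the genes differ between regions. The myelin genes were highest in the DMT and lowest in the mPFC, while the averages of the precursor gene Pdgfra lay between 52.0 CPM in the ACC and 72.8 CPM in the BLA. Of the 32 genes, 29 had their highest average in the DMT and 3 in the BLA (Gpr17, Pdgfra and Cspg4), and 30 had their lowest average in the mPFC and 2 in the ACC (Pdgfra and Cspg4). On the scale of CPM per kilobase of exon, which allows a comparison between genes, Mbp reached 313.2 in the DMT, Cnp 90.4, Mag 53.2 and Mog 34.2. The precursor gene Pdgfra reached 5.54 on that scale in the DMT and Cspg4 2.37. Ninj2, an adhesion protein, was the gene with the lowest level and stayed at an average of 0.305 to 0.854 CPM in the regions.

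Mog, a glycoprotein of the outer myelin surface, had a lowest, median and highest level of 7.56, 14.7 and 37.7 CPM in the mPFC. The same 3 values were 44.7, 58.1 and 79.6 CPM in the DMT, so that no DMT library fell into the range of the mPFC. In the ACC they were 8.49, 33.3 and 80.7 CPM, a range that covered those of the mPFC and the DMT almost whole. The ranges of the other regions lay between, at 25.5, 35.9 and 52.4 CPM in the Nacc and 21.1, 28.1 and 71.6 CPM in the BLA. In the vHipp the values were 11.3, 23.1 and 35.7 CPM, all below the lowest DMT library. Every one of the 41 mice had more Mog in the DMT than in the mPFC, and all 41 had more in the ACC than in the mPFC, while 26 of 41 had more in the Nacc than in the ACC, and 19 of 29 without the 12 libraries that resembled another mouse.

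In edgeR's quasi-likelihood test with the mouse as a block and Benjamini-Hochberg adjustment over 16551 genes, Mog was higher in the DMT than in the mPFC by 1.88 on the log2 scale (SE 0.088, adjusted p = 3.89e-53). In the descending order of its averages, Mog in the DMT exceeded the Nacc by 0.68 (log2, adjusted p = 1.07e-13), and by 0.65 without the 12 Nacc libraries. The Nacc and ACC did not differ beyond their spread (log2 0.10, adjusted p = 0.296, and 0.12, adjusted p = 0.237, without them), and the BLA lay below the ACC by a log2 of -0.19 (adjusted p = 0.0366). The vHipp in turn lay below the BLA by a log2 of -0.43 (adjusted p = 1.98e-06) and above the mPFC by 0.48 (adjusted p = 2.55e-07).

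Mbp, the basic protein that holds the myelin layers together, had averages of 793.6 ± 339.3 CPM (SD, n = 41) for the mPFC, 1632.9 ± 657.3 for the ACC and 1651.3 ± 276.3 for the Nacc. It averaged 1169.5 ± 262.1 CPM in the vHipp, 1458.2 ± 422.0 in the BLA and 2652.3 ± 267.9 in the DMT. The lowest DMT library, at 2272.2 CPM, stood above the highest mPFC library, at 1803.5 CPM. The difference of the DMT from the mPFC was 1.81 (log2, SE 0.086, adjusted p = 3.56e-52, edgeR's quasi-likelihood test). Mobp, another structural protein of myelin, differed by 2.06, Mag, the adhesion molecule of the inner myelin layer, by 1.99, and Cnp, the phosphodiesterase of the uncompacted channels, by 1.53 on the same scale.

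**Figure D1:**
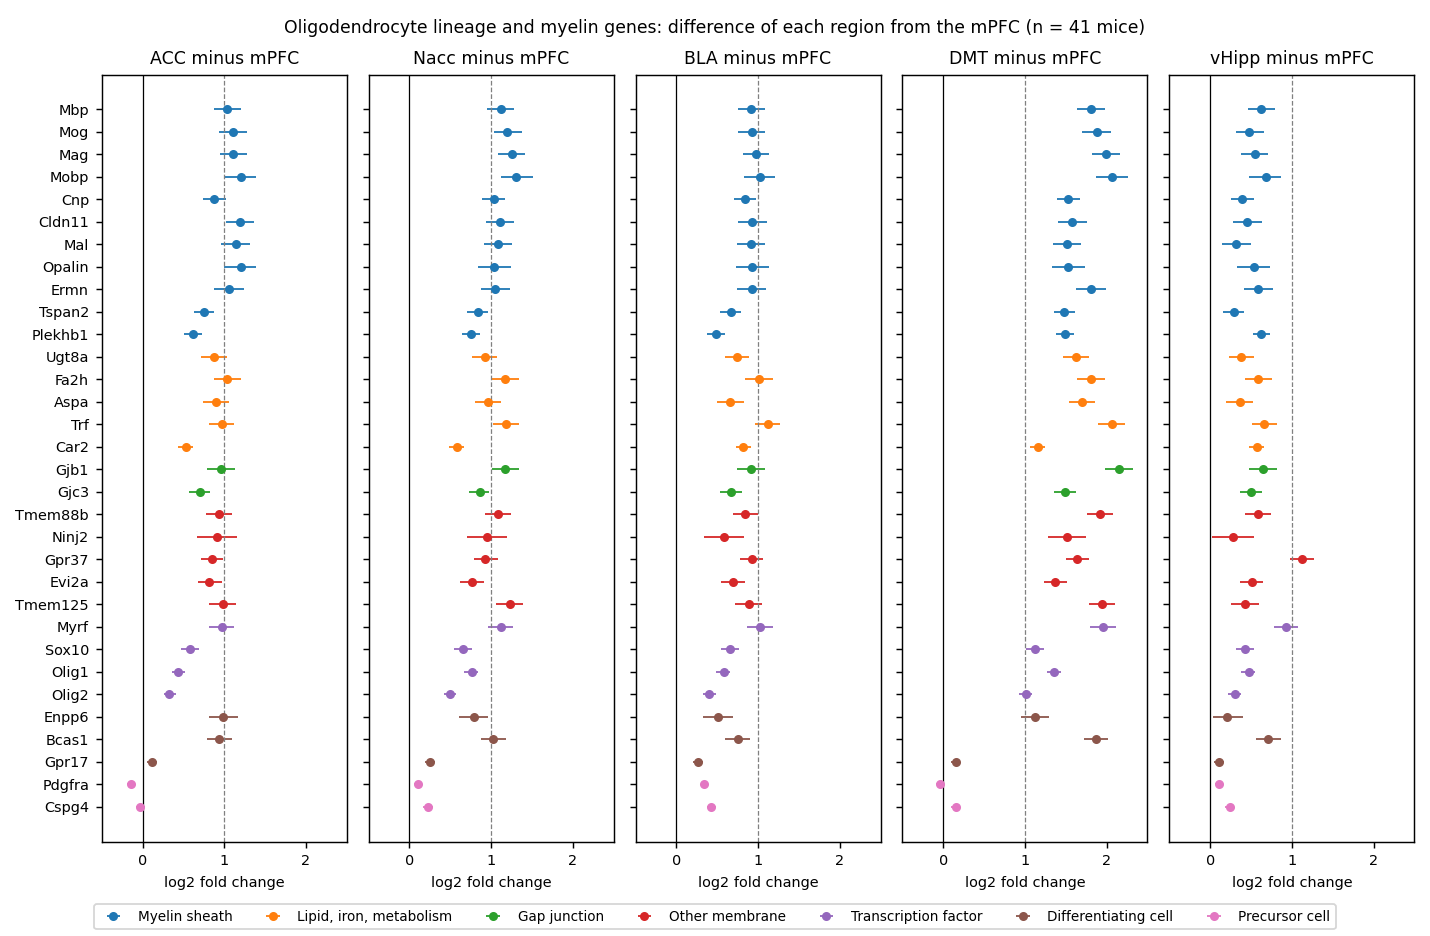
Difference of each region from the mPFC for the 32 genes (y axis), as log2 fold change with 95% interval (x axis, 41 mice), coloured by role; the dashed line marks a log2 of 1. The myelin genes of the DMT lie between 1.48 and 2.06, where Pdgfra, Cspg4 and Gpr17 lie between -0.04 and 0.16, and in the BLA panel these 3 lie between 0.26 and 0.43.

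Between the DMT and the mPFC, 29 of the 32 genes were higher in the DMT past an adjusted p of 0.05 and a log2 of 1, where 10.8% of all genes were higher past the same limits. The median log2 difference of the 32 genes was 1.56, beside 0.0 over all genes. For 22 of them the lowest of the 41 DMT libraries stood above the highest of the 41 mPFC libraries, which held for 9.43% of all genes. All 11 genes of the myelin sheath passed, with log2 differences from 1.48 to 2.06, among them Ermn, a cytoskeletal protein, at 1.81, Cldn11, the tight junction protein of myelin, at 1.58, Mal, a proteolipid, at 1.51, Plekhb1 at 1.49 and the tetraspanin Tspan2 at 1.48. All 5 genes of lipid, iron and related metabolism passed too, led by Trf, the iron carrier transferrin, at 2.06, with Fa2h, which hydroxylates the fatty acids of myelin lipids, at 1.81 and Aspa, which splits N-acetylaspartate, at 1.70. Ugt8a, which makes the galactolipids of myelin, differed by 1.63 and the carbonic anhydrase Car2 by 1.16. Of the other membrane proteins, Tmem125 differed by 1.94, Tmem88b by 1.92, Gpr37 by 1.64, Ninj2 by 1.51 and Evi2a by 1.37. The gap junction proteins Gjb1 and Gjc3 differed by 2.15 and 1.49, and the value of Gjb1 was the highest of the group (SE 0.085, adjusted p = 6.98e-64).

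Among the transcription factors, Myrf, which switches on the myelin genes, differed most between the DMT and the mPFC, by 1.95 on the log2 scale. Olig1 differed by 1.35, Sox10 by 1.12 and Olig2 by 1.01. Of the genes of the differentiating cell, Bcas1 differed by 1.87 and Enpp6, a choline phosphodiesterase, by 1.12, but Gpr17, a receptor of the passing stage before myelination, by 0.15 (adjusted p = 4.56e-06). For Cspg4, the proteoglycan of the precursor, the difference was 0.16 (adjusted p = 1.1e-07), and for Pdgfra, the receptor for platelet-derived growth factor, it was -0.04 (adjusted p = 0.0908). Of 28 other genes of mature oligodendrocytes, all were higher in the DMT at an adjusted p under 0.05, 18 of them past a log2 of 1. Of 8 other precursor genes, 3 were higher and 4 lower, with a median log2 of -0.07, where 43.5% of all genes were higher and 42.8% lower.

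The remaining regions lay between these 2 ends. Relative to the mPFC, 9 genes were higher in the ACC past both limits (0.574% of all genes), with a median log2 over the 32 genes of 0.93. The 9 were myelin sheath genes and Fa2h, and the largest differences were those of Mobp and Opalin, both 1.20. In the Nacc, 16 were higher (5.67% of all genes, median 0.99), and the count was also 16 without the 12 libraries that resembled another mouse. In the BLA, 4 were higher (7.78% of all genes, median 0.83), namely Trf at 1.12, Mobp and Myrf at 1.02 and Fa2h at 1.01. All 32 were higher in the BLA at an adjusted p under 0.05 alone, where 38.6% of all genes were.

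Trf is also made by the choroid plexus, and in the BLA libraries all 7 choroid plexus genes were higher than in the mPFC past both limits. Their summed level ranged from 31.5 to 5766.0 CPM in the BLA and from 2.96 to 14.8 CPM in the mPFC, where 2 of the 7 averaged under 0.1 CPM. Their part in the BLA level of Trf was not tested. In the vHipp, 1 gene passed both limits against the mPFC (6.11% of all genes, median 0.49), and this was Gpr37, a receptor that acts in oligodendrocyte differentiation, at 1.12 (adjusted p = 5.21e-36).

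Relative to the DMT, 20 genes were lower in the vHipp past both limits (11% of all genes, median log2 -1.14), and 21 had every vHipp library below every DMT library, as had 11.7% of all genes. The DMT exceeded the BLA for 8 genes (7.58% of all genes, median 0.82) and the ACC for 2, Gjb1 at 1.19 and Trf at 1.09 (10.4% of all genes, median 0.76). None of the 32 passed both limits between the DMT and the Nacc, where 18.9% of all genes did, but 29 were higher and 3 lower at an adjusted p under 0.05 alone, with a median of 0.64 (42.9% and 43.5% of all genes), and without the 12 libraries the counts were again 29 and 3, with a median of 0.62. The ACC and the Nacc were close for the group, with 11 genes higher in the Nacc and 1 lower at an adjusted p under 0.05 (42.7% and 37.5% of all genes), with 12 higher and 0 lower without the 12 doubtful libraries. Without the mouse as a block the counts were 6 and 2. In the BLA, 5 genes were higher and 9 lower than in the ACC by that measure (39.2% and 39.7% of all genes).

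The precursor genes had an order of their own. Pdgfra averaged 72.8 ± 4.54 CPM (SD, n = 41) in the BLA, 61.9 ± 6.42 in the vHipp, 61.5 ± 5.0 in the Nacc, 57.4 ± 4.73 in the mPFC, 55.5 ± 3.98 in the DMT and 52.0 ± 4.65 in the ACC. It was higher in the BLA than in the DMT in all 41 mice, and the difference of the DMT from the BLA was -0.39 on the log2 scale (adjusted p = 4.25e-36). The difference between the vHipp and Nacc did not pass edgeR's quasi-likelihood test (log2 0.01, adjusted p = 0.789, and 0.02, adjusted p = 0.404, without the 12 Nacc libraries). Nor did that between the mPFC and DMT. Cspg4 followed with 34.3 ± 3.0 CPM in the BLA and 25.1 ± 2.92 in the ACC. Its difference between the ACC and mPFC did not pass the same test (log2 -0.03, adjusted p = 0.502). Gpr17 lay between 46.8 ± 4.69 CPM in the mPFC and 56.1 ± 6.16 in the BLA, and its ranges overlapped between all regions. The BLA libraries also held a high level of choroid plexus genes. The part of cells other than precursors in the BLA levels of Pdgfra and Cspg4 was not tested.

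**Figure D2:**
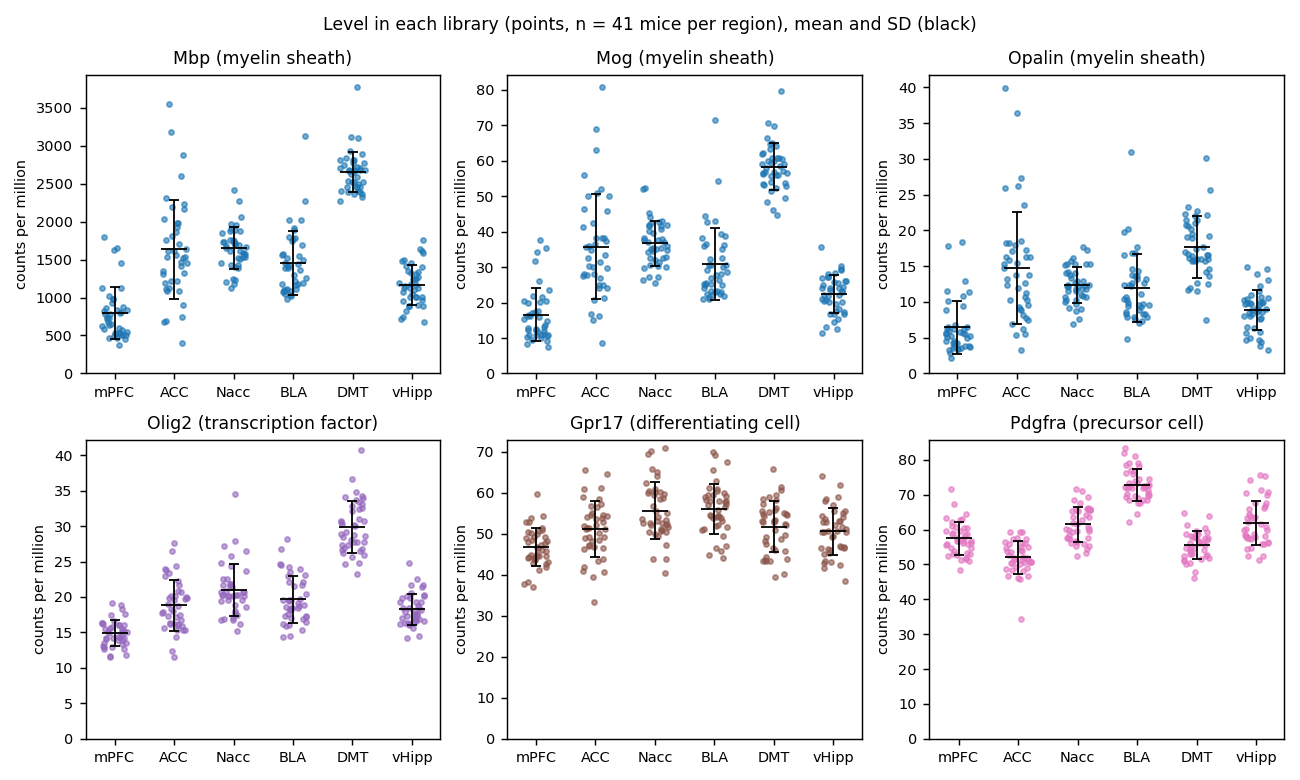
Level of 6 genes (y axis, CPM) in each library of the 6 regions (points, 41 mice per region), with mean and SD in black. Mbp and Mog peak in the DMT and spread widely in the ACC, while Pdgfra is highest in the BLA, at 72.8 on average, and varies little between mice.

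The second question was how far the genes varied between mice within a region. The myelin genes varied most in the cortex and least in the thalamus. The median SD of the log2 level over the 11 myelin sheath genes was 0.62 in the ACC, 0.54 in the mPFC, 0.37 in the BLA, 0.35 in the vHipp, 0.24 in the Nacc and 0.16 in the DMT. The precursor genes had a median SD of 0.10 to 0.16 in the 6 regions. In the ACC the highest library held 12.6 times the Mobp of the lowest and 12.3 times the Opalin, a membrane glycoprotein of central myelin, whereas Pdgfra ranged from 34.4 to 59.4 CPM there.

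Within a region, most of the genes varied together. Across the 41 mice of the mPFC the log2 levels of Mbp and Mog correlated with Pearson's r = 0.97 and Spearman's rho = 0.96, and those of Mag and Mog with r = 0.98 and rho = 0.97 (permutation p = 1e-05 for each, the smallest that 100000 resamples can give). Of the 31 other genes, 23 had an r with Mog over 0.8 in the mPFC (0.607% of all genes), 26 did so in the ACC (1.14%) and 24 in the BLA (0.7%). The same held for 23 genes of the vHipp (0.363%), 18 of the Nacc (0.214%) and 3 of the DMT (0.0379%). The median r was 0.95 in the mPFC and the ACC, 0.92 in the BLA, 0.87 in the vHipp, 0.83 in the Nacc and 0.65 in the DMT. The 3 of the DMT, where the spread was smallest, were Mag and Cnp at 0.86 and Mbp at 0.82. Without the 2 mice farthest from the median of Mog in each region the counts were 23 for the mPFC, 25 for the ACC, 24 for the BLA, 19 for the vHipp, 13 for the Nacc and 2 for the DMT. With the condition means removed they were 24, 27, 24, 22, 19 and 4 in that order.

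The precursor genes Pdgfra and Cspg4 stayed apart from Mog, while Gpr17, Olig1 and Olig2 did so in some regions only. Pdgfra had an r with Mog between -0.38 in the mPFC and 0.25 in the Nacc. Its r of -0.38 in the mPFC (rho = -0.34, permutation p = 0.014 for r and 0.029 for rho, unadjusted, for each of 31 genes in 6 regions) became -0.29 without the 2 farthest mice (permutation p = 0.071) and -0.40 with the condition means removed (permutation p = 0.0096). Cspg4 had an r between -0.34 in the mPFC and 0.24 in the Nacc. Gpr17 went from -0.01 in the DMT to 0.57 in the ACC, where its rho was 0.59 (permutation p = 0.00017 for r and 8e-05 for rho). Olig1 and Olig2 tracked Mog in the ACC, with r of 0.85 and 0.78, but not in the mPFC, with r of -0.07 and 0.15. Their r was 0.68 and 0.60 in the BLA, 0.59 and 0.58 in the Nacc, 0.14 and 0.33 in the vHipp, and 0.05 and 0.08 in the DMT. Ninj2, the gene with the lowest level, had an r of 0.16 in the Nacc and of 0.50 to 0.63 in the other regions. The difference between these correlations was not tested.

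**Figure D3:**
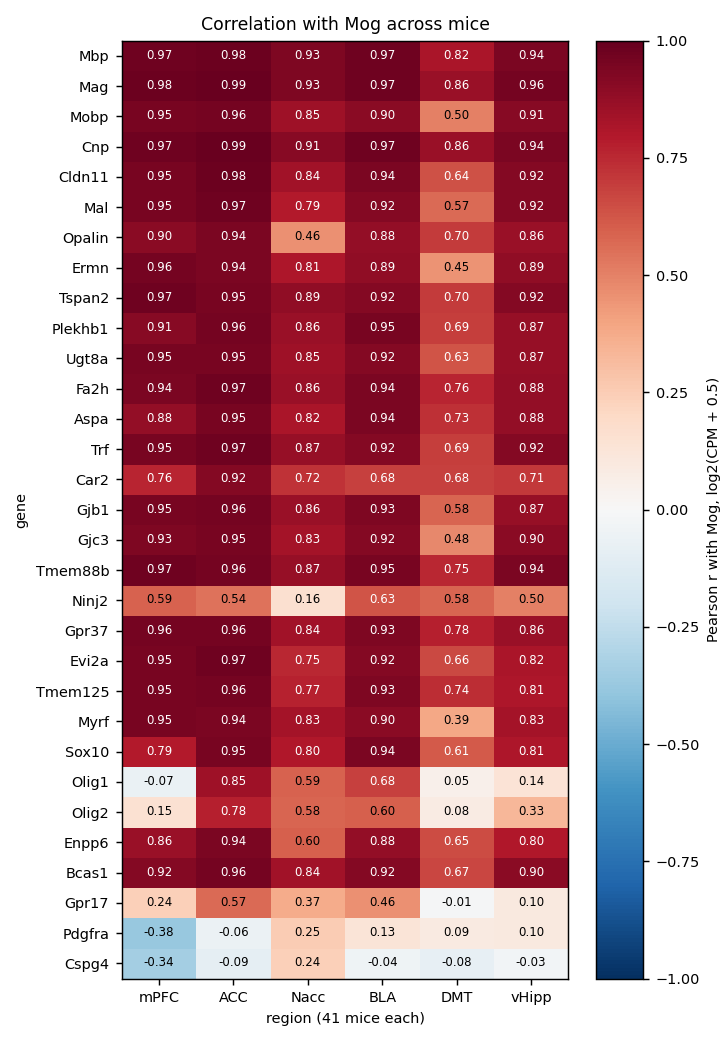
Pearson's r of the log2 level of each gene (rows) with that of Mog across the 41 mice of each region (columns), with the colour scale from -1 to 1. The myelin rows lie above 0.8 in the mPFC and ACC, the DMT column is paler, and the rows of Gpr17, Pdgfra and Cspg4 lie between -0.38 and 0.57.

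The region accounted for a median of 65.6% of the sum of squares of the log2 level over all libraries, and the mouse for a median of 9.95%. The share of the mouse was 34.2% for Gpr17, 23.3% for Opalin, 22.4% for Ninj2 and 20.3% for Cspg4, and lay between 6.6% and 15.8% for the other 28 genes. Without the Nacc the share of the mouse for Gpr17 was 41.3%. Of what the region left, the mouse took 43.6% for Opalin, 43.5% for Gpr17, 42.3% for Olig2 and 41.7% for Cspg4, beside 29.8% for Mog and 27.1% for Mbp.

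The third comparison asked whether early life adversity or the drug given to the dam changed the genes in adult offspring. No gene of the group passed in any region or set. In 36 comparisons of 2 conditions within a set and region, 0 of 1152 tests passed an adjusted p of 0.05 in edgeR's quasi-likelihood test and 0 in DESeq2, with 16 (1.39%) and 21 (1.82%) at an unadjusted p under 0.05, beside 4.14% of all tests over all genes in edgeR. Over all genes in edgeR, 0.00625% passed in ELA_SAFit2 against ELA_Veh in the BLA after social interaction, and 0.0% in each of the other comparisons. DESeq2 called 151 of 569856 tests over all genes, in 34 of the 36 comparisons. None of the 576 tests of a condition effect differing between the NoInteraction and SocialInteraction sets passed in edgeR or DESeq2. In each, 5 (0.868%) had an unadjusted p under 0.05, beside 3.97% of all tests over all genes in edgeR and 4.02% in DESeq2. At the adjusted p, the edgeR background for ELA_SAFit2 against ELA_Veh was 0.0315% in the Nacc and 0.0318% in the ACC. It was 0.0379% in the DMT, 0.0382% in the vHipp and 0.0% elsewhere. DESeq2 called 42 of 284928 tests over all genes, in 17 of the 18 comparisons. With the counts of the 6 regions summed per mouse, 0 of 96 passed in either tool. At an unadjusted p under 0.05 there were 2 (2.08%) in edgeR and 3 (3.12%) in DESeq2, beside 5.52% and 5.67% over all genes. The edgeR background at the adjusted p was 0.00575% for ELA_SAFit2 against Ctrl_Veh and 0.0% for the other comparisons. DESeq2 called 31 of 52143 tests over all genes, with a call in each of the 3 comparisons.

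Within a set, the largest median differences of the group lay in the mPFC, with no call. Without social interaction, Mog in the mPFC had a lowest, median and highest level of 10.0, 15.9 and 23.6 CPM in Ctrl_Veh. It had 7.56, 20.3 and 37.7 CPM in ELA_Veh and 10.8, 13 and 21.7 CPM in ELA_SAFit2. The 3 ranges overlapped, and the range of ELA_Veh enclosed both others. The log2 difference of Mog between ELA_Veh and Ctrl_Veh was 0.39 (95% interval -0.27 to 1.05, adjusted p = 0.947, edgeR's quasi-likelihood test), and between ELA_SAFit2 and ELA_Veh -0.44 (-1.10 to 0.22, adjusted p = 0.908).

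Most of the group lay on one side of 0 in several of these comparisons, and the 32 genes are not independent of each other, since most of them varied together. In the mPFC without social interaction, 30 of the 32 genes were above 0 in ELA_Veh against Ctrl_Veh, with a median log2 of 0.31 beside 0.0 over all genes, and 28 were below 0 in ELA_SAFit2 against ELA_Veh, with a median of -0.33. These comparisons share the ELA_Veh mice. In the mPFC after social interaction the medians were 0.07 and -0.22. In the ACC the median of ELA_Veh against Ctrl_Veh was 0.22 without and -0.20 with social interaction, with 31 genes above and 29 below 0. The difference between the sets had a median of -0.44 there, and none of the 32 genes passed its test (smallest adjusted p = 0.486, edgeR's quasi-likelihood test). In the DMT without social interaction it was 0.13, with 30 genes above 0 and 7 at an unadjusted p under 0.05 (3.75% of all genes), and over the summed regions it was 0.07 with all 32 above 0.

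The precision of these comparisons differed between regions by the spread described above. The median distance from a log2 difference to the end of its 95% interval was 0.63 and 0.55 in the ACC, without and with social interaction, 0.54 and 0.52 in the mPFC, and 0.42 and 0.37 in the BLA. It was 0.29 and 0.35 in the vHipp, 0.28 and 0.24 in the Nacc, and 0.16 and 0.18 in the DMT. The Nacc values include the 12 libraries that resembled a mouse of another condition or set. In the DMT without social interaction the interval of Mog for ELA_Veh against Ctrl_Veh was -0.08 to 0.24 around a log2 of 0.08. Opalin had the largest difference of the myelin genes in the DMT without social interaction, with 16.5 ± 3.39 CPM (SD, n = 7) in Ctrl_Veh, 21.4 ± 4.75 in ELA_Veh and 21.2 ± 2.48 in ELA_SAFit2. Its log2 difference between ELA_Veh and Ctrl_Veh was 0.37 (95% interval 0.09 to 0.65), and the adjusted p over all genes was 0.999 in edgeR's quasi-likelihood test.

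**Figure D4:**
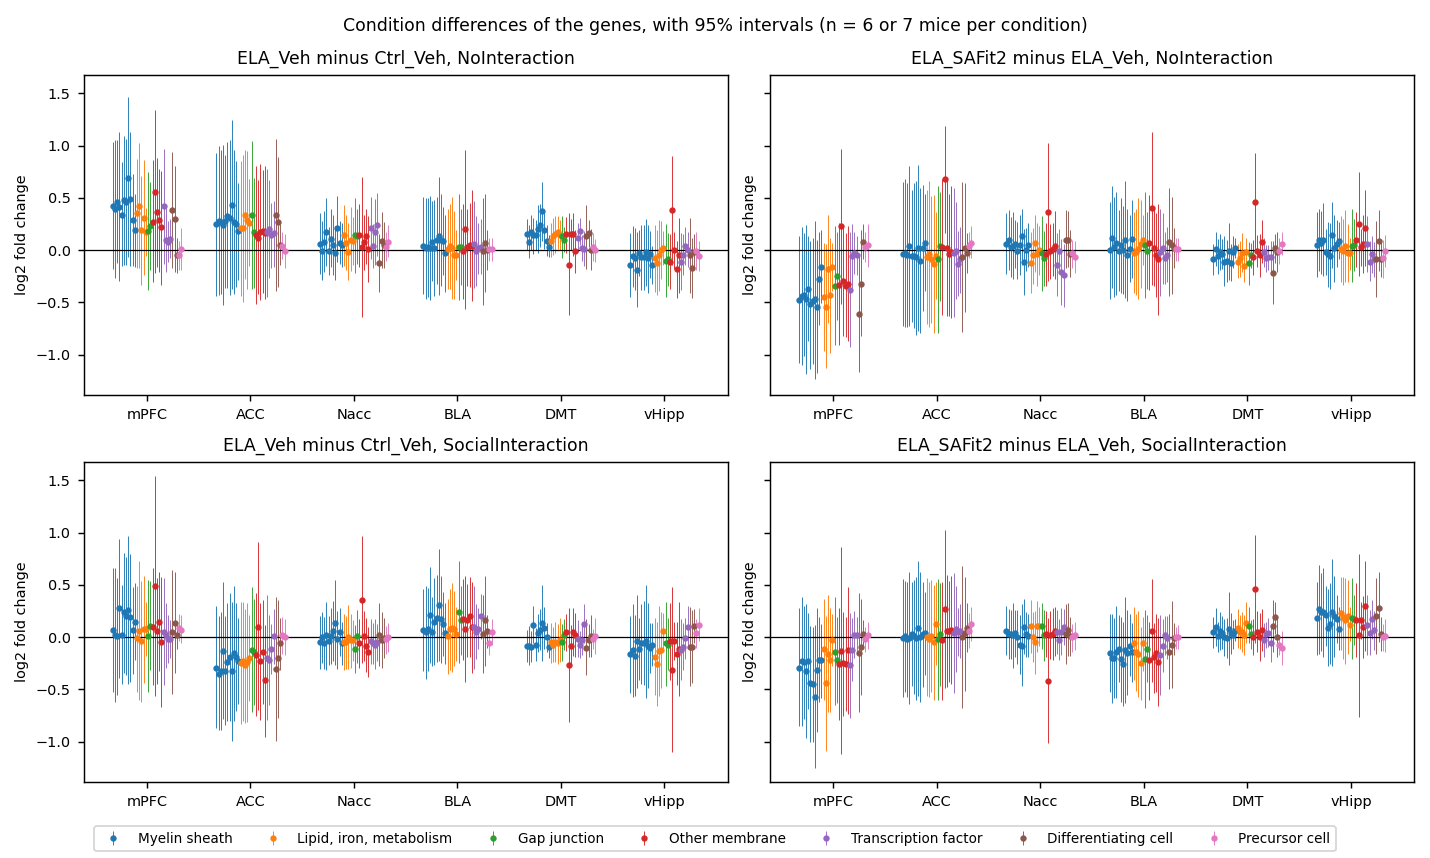
Log2 fold change with 95% interval (y axis) of the 32 genes in the 6 regions (x axis) for ELA_Veh minus Ctrl_Veh and ELA_SAFit2 minus ELA_Veh in both sets (6 or 7 mice per condition), coloured by role. The mPFC groups lie to one side of 0 with medians of 0.31 and -0.33 in the upper panels, the intervals are widest in the mPFC and ACC, and no gene passed the adjusted test.

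The fourth comparison set mice taken after the social interaction against mice taken without it, as the mean of the differences within the 3 conditions. A few genes of the lineage differed: Cspg4 and Olig2 were higher after the interaction, and Opalin and Gpr37 were lower. Mice with and without the interaction were different animals.

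Cspg4 had a lowest, median and highest level in the mPFC of 19.6, 23 and 32.2 CPM in the 21 NoInteraction mice and of 23, 28 and 31 CPM in the 20 SocialInteraction mice. The groups overlapped, but the median of the NoInteraction mice lay at the lowest value of the SocialInteraction mice. The averages of Cspg4 in the mPFC were 23.3, 23.5 and 24.2 CPM in Ctrl_Veh, ELA_Veh and ELA_SAFit2 without the interaction and 26.4, 27.6 and 28.1 CPM after it. Its log2 difference was 0.21 (SE 0.049, 95% interval 0.11 to 0.31, adjusted p = 0.00552, edgeR's quasi-likelihood test). Cspg4 also rose in the ACC, by a log2 of 0.16 (SE 0.046, adjusted p = 0.0411), from a lowest, median and highest of 19.3, 23.2 and 27.7 CPM to 19.0, 26.5 and 31.2 CPM. In the BLA it rose by 0.14 (SE 0.032, adjusted p = 0.0203), from 28.1, 33 and 37.4 CPM to 31.9, 36.3 and 41 CPM. In the other 3 regions its difference was also above 0, at 0.08 in the Nacc (adjusted p = 1.0, and also 0.08 without the 12 doubtful libraries), 0.12 in the vHipp (adjusted p = 0.205) and 0.12 in the DMT (adjusted p = 0.135).

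The other precursor genes did not move with Cspg4. The difference of Pdgfra was 0.06 in the mPFC (adjusted p = 0.406), -0.02 in the BLA and -0.05 in the ACC. Of 8 other precursor genes, 1 lay above 0 in the mPFC and none passed there, and in the ACC 1 passed, Lhfpl3, which fell by 0.22 on the log2 scale (adjusted p = 0.0293). Cspg4 is also made by pericytes of the vessel wall. Of 10 endothelial and mural genes, 1 was higher after the interaction in each of the mPFC, ACC and BLA, in each case Ly6c1, a surface protein of endothelial cells, by 0.34, 0.28 and 0.28. In the ACC 1 of the 10 fell, Slco1a4, a transporter of the endothelium, by 0.18 (adjusted p = 0.0073). Ly6c1 was also higher where Cspg4 did not pass, by 0.28 in the DMT (adjusted p = 0.000656) and by 0.26 in the vHipp (adjusted p = 0.0154). The summed level of the 10 genes ranged from 292.8 to 445.5 CPM without and from 269.1 to 436.6 CPM with the interaction in the mPFC, from 314.5 to 377.0 and from 301.4 to 350.1 CPM in the ACC, and from 295.0 to 380.2 and from 279.6 to 372.6 CPM in the BLA. The part of vascular cells in the difference of Cspg4 was not tested.

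Olig2, the basic helix-loop-helix factor that sets the lineage, had 11.5, 13.9 and 17.6 CPM in the mPFC of the NoInteraction mice and 13, 15.7 and 19.2 CPM in the SocialInteraction mice. The groups overlapped, and the log2 difference was 0.18 (SE 0.051, 95% interval 0.07 to 0.28, adjusted p = 0.0269, edgeR's quasi-likelihood test). It was above 0 in all 6 regions, between 0.06 and 0.18, as was that of Olig1, between 0.03 and 0.13, of which none passed. In the mPFC 2 of the 32 genes were thus higher (4.81% of all genes), in the ACC 1 (2.42%) and in the BLA 1 (0.825%), and in the mPFC and ACC these shares were near the background.

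Opalin fell in the vHipp. It had a lowest, median and highest level of 6.45, 10.0 and 14.8 CPM in the NoInteraction mice and of 3.30, 7.88 and 11 CPM in the SocialInteraction mice. The groups overlapped, and the lowest, median and highest values were all lower after the interaction. The averages of Opalin in the vHipp were 10.2, 10.1 and 11.2 CPM in Ctrl_Veh, ELA_Veh and ELA_SAFit2 without the interaction and 6.93, 6.66 and 7.86 CPM after it, so that the difference had one direction in each condition. The log2 difference was -0.55 (SE 0.125, 95% interval -0.81 to -0.30, adjusted p = 0.0166, edgeR's quasi-likelihood test). In the DMT the averages were 19.7 ± 4.18 CPM (SD, n = 21) and 15.6 ± 3.41 (SD, n = 20), a log2 difference of -0.33 whose adjusted p was 0.05 when rounded and did not pass. The differences of Opalin in the other regions were -0.44 in the ACC (adjusted p = 0.283), -0.34 in the BLA (adjusted p = 0.285), -0.33 in the mPFC (adjusted p = 0.414) and -0.03 in the Nacc (adjusted p = 1.0, and -0.13 without the 12 doubtful libraries).

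Gpr37 had 51.1, 62.5 and 77.0 CPM in the vHipp of the NoInteraction mice and 42.3, 54.5 and 66.0 CPM in the SocialInteraction mice. The groups overlapped, and the gene fell by 0.21 on the log2 scale (SE 0.052, adjusted p = 0.0272, edgeR's quasi-likelihood test). In the vHipp 2 of the 32 genes were thus lower, where 0.388% of all genes were. The vHipp group as a whole lay low, with 29 of the 32 genes below 0 and a median log2 of -0.16. At an unadjusted p under 0.05 there were 13 genes, 12 of them lower and 1, Cspg4, higher, against 12.9% of all genes. The 32 genes are not independent of each other, since 23 of the 31 others had an r with Mog over 0.8 in the vHipp. Mog itself differed by -0.20 there (adjusted p = 0.454) and Mbp by -0.19 (adjusted p = 0.418). Pllp, a myelin proteolipid outside the group, fell by 0.29 in the vHipp (adjusted p = 0.0128) and by 0.22 in the DMT (adjusted p = 0.0357). Cryab, a small heat shock protein of the same list, rose by 0.23 in the DMT (adjusted p = 0.0356).

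In the DMT 0 of the 32 genes passed in edgeR (1.6% of all genes in edgeR), with Opalin among the genes at an unadjusted p under 0.05. DESeq2 called 2, a count given without the share of all genes that DESeq2 called, and so not read as a result about the group. In the Nacc 0 passed in edgeR and 0 in DESeq2, with 0 at an unadjusted p under 0.05, and 0.0% of all genes passed there, with 2.46% at an unadjusted p under 0.05. At the adjusted p the Nacc count of the group was also 0 without the 12 doubtful libraries. At an unadjusted p under 0.05 in edgeR's quasi-likelihood test, Mobp, Cldn11, Mog and Olig2 then appeared. Their log2 differences were 0.29, 0.20, 0.18 and 0.16. Of 15 genes of cholesterol synthesis, a pathway that mature oligodendrocytes use heavily, 4 rose in the mPFC after the interaction, among them Idi1 by 0.16, Hmgcs1 by 0.17 and Msmo1 by 0.14 on the log2 scale. Idi1 also rose in the ACC, by 0.11. Of 28 other genes of mature oligodendrocytes, none passed in the mPFC, ACC, BLA or Nacc. Among the other lists, Tnr, a matrix protein listed with the differentiating cell, rose by 0.12 in the mPFC, the neurofilament gene Nefl rose by 0.14 in the ACC, and the astrocyte connexin gene Gjb6 rose by 0.28 in the BLA and 0.20 in the DMT. In the ACC the astrocyte connexin gene Gja1 fell by 0.10 and the microglial receptor gene P2ry12 by 0.17.

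Because the myelin genes of a region rose and fell together from mouse to mouse, the social comparison was repeated with the log2 level of Mog of each library as a covariate, an alternative added after the data were seen. It compares each gene at an equal level of Mog. The counts became 5 for the mPFC (8.7% of all genes), 5 for the ACC (5.2%), 4 in the BLA (2.14%) and 2 in the DMT (1.6%), and stayed at 2 in the vHipp (0.661%) and 0 in the Nacc (0.0%). Opalin was then lower by a log2 of -0.33 in the ACC (SE 0.054, adjusted p = 0.000206), -0.33 in the mPFC (SE 0.070, adjusted p = 0.00177), -0.29 in the DMT (SE 0.060, adjusted p = 0.00434) and -0.36 in the vHipp (SE 0.063, adjusted p = 0.00146). In the BLA it was -0.19 (adjusted p = 0.101) and in the Nacc -0.12 (adjusted p = 1.0), and all p-values are from edgeR's quasi-likelihood test. Gpr37 had log2 differences of -0.19 in the ACC, -0.14 in the mPFC, -0.13 in the vHipp and -0.12 in the BLA, each past the threshold. Cspg4 kept log2 differences of 0.21, 0.16 and 0.14 in the mPFC, ACC and BLA, and Olig2 had 0.18 in the mPFC and 0.22 in the BLA (adjusted p = 0.00671). No condition comparison gained a call with the same covariate.

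**Figure D5:**
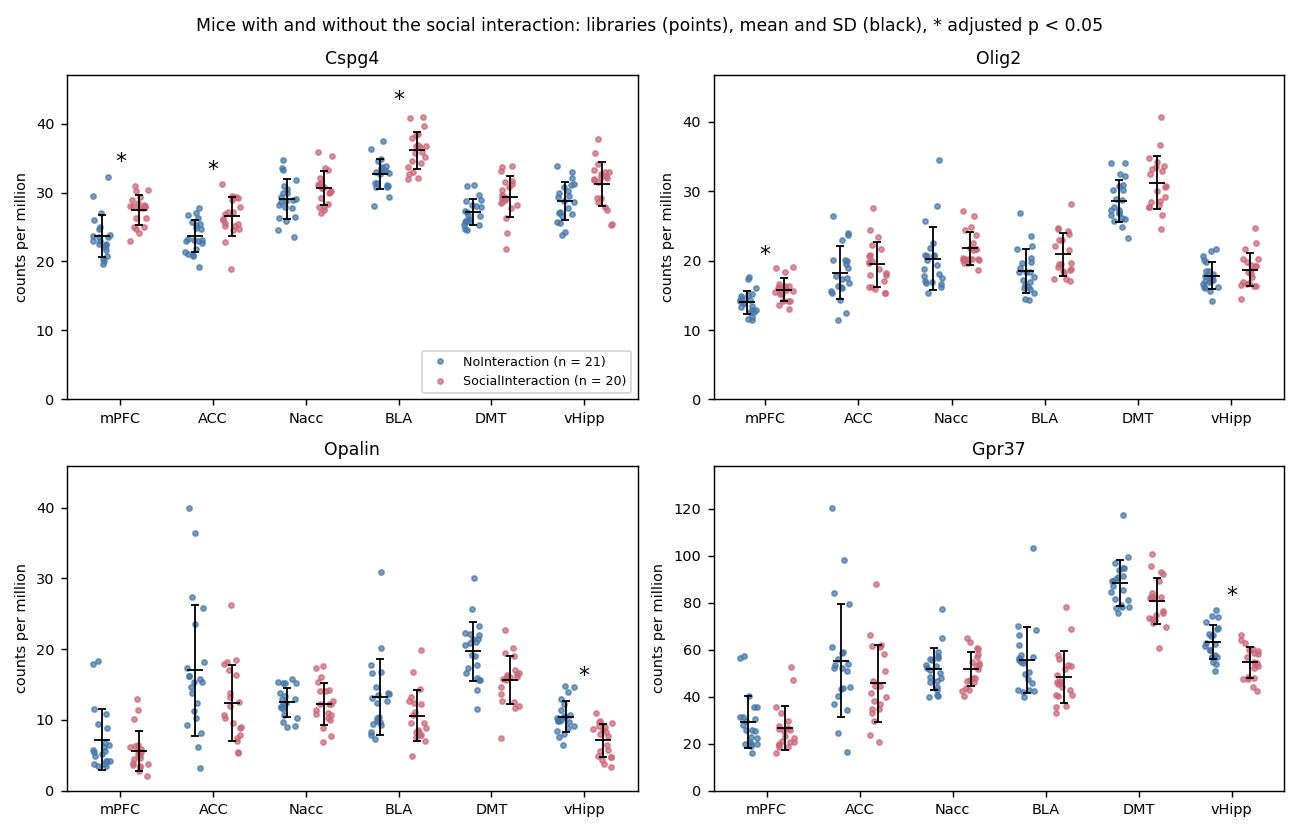
Level of Cspg4, Olig2, Opalin and Gpr37 (y axis, CPM) in the libraries of the 6 regions (x axis) for NoInteraction mice (blue, n = 21) and SocialInteraction mice (red, n = 20), with mean and SD in black and a star where the adjusted p passed. Cspg4 is starred in the mPFC, ACC and BLA, Olig2 in the mPFC, and Opalin and Gpr37 in the vHipp, and all groups overlap.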

How the data were processed

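The deposited table holds expected counts per gene, which the authors made with salmon from poly-A selected, stranded libraries; per the labels the build was GRCm39. They were rounded, as 12.12% were not whole. Protein-coding genes (GENCODE M21) were kept where the libraries together held 100 counts or more and 6 libraries or more had any. Fits used edgeR 4.0.16 (quasi-likelihood test, TMM scaling, R 4.3.3), adjusted by Benjamini-Hochberg over all genes tested and called at 0.05, between regions also past a log2 fold change of 1. Regions were fitted with the mouse as a block, since the same 41 mouse numbers recur in every region, conditions within a region and set, and the social interaction over the 41 libraries of a region. Alternatives were DESeq2 1.42.0, its size factors, no filter, no block, 1 set alone, 1 model per region, leaving out 12 Nacc libraries, and Mog as a covariate. Levels are CPM, and correlations used log2(CPM + 0.5) with unadjusted two-sided permutation p-values (100000 resamples). In simulated counts of the mPFC comparison of ELA_Veh and Ctrl_Veh (15812 genes), 76% of genes changed by a log2 of 0.5 and 99% of those changed by 1 were recovered. These shares describe 100 changed genes at each size, not the 32 genes. For the 32 genes in the mPFC without social interaction, the median distance from a log2 difference to the end of its interval was 0.54. A change of 0.5 in these genes could therefore be missed there, and their own recovery was not tested. The 32 genes and the other lists were chosen with earlier results of these data known. All 32 genes are named. From each other list up to 3 genes past the threshold with the smallest p are named after social interaction, and counts are given between regions.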

Additional observations from a re-analysis of the deposited data

Results flagged for a closer look

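In 78 groups of 6 or 7 mice that were checked for a value far from the others, 5 had one, where chance gives about 1 in 20 groups. Mog in the BLA was highest in 1 mouse of ELA_SAFit2 without social interaction, at 71.6 CPM with the next value at 36.6 CPM, and in 1 mouse of ELA_Veh after social interaction, at 54.3 CPM with the next at 30.7 CPM. Mog in the DMT was highest in 1 mouse of ELA_Veh without social interaction, at 79.6 CPM with the next at 63.3 CPM. Cspg4 in the mPFC was highest in 1 mouse of ELA_Veh without social interaction, at 32.2 CPM with the next at 23 CPM, and without that library the log2 difference after social interaction, taken between the means of log2 CPM, was 0.24 instead of 0.21. Olig2 in the mPFC was lowest in 1 mouse of ELA_SAFit2 without social interaction, at 11.6 CPM with the next at 13.9 CPM.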

How the results depend on the processing

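The region counts at both limits stayed within 1.5 times under DESeq2, its size factors and no filter on low counts. DMT against BLA gave 6 genes under DESeq2, 6 under its size factors and 7 without the filter, in place of 8. BLA against mPFC gave 5 under DESeq2 in place of 4. At the adjusted p alone, BLA against ACC gave 7 higher and 8 lower under DESeq2 and under its size factors, in place of 5 and 9. Without the replicate block, that is without the pairing of regions by mouse, BLA against mPFC gave 2 genes in place of 4, and the other 14 comparisons gave counts within 1.5 times at both limits. At the adjusted p alone, Nacc against ACC gave 6 higher and 2 lower without that block in place of 11 and 1. In mice without social interaction alone, DMT against Nacc gave 1 gene in place of 0, and at the adjusted p alone Nacc against ACC gave 5 higher and 2 lower in place of 11 and 1, and BLA against ACC 4 and 4 in place of 5 and 9. After social interaction the counts with Mog as a covariate were 5 in place of 2 in the mPFC, 5 in place of 1 in the ACC, 4 in place of 1 in the BLA and 2 in place of 0 in the DMT. In the DMT, DESeq2 gave 2 and its size factors gave 1 in place of 0. These 2 counts stand without their shares over all genes, and the cause was not tested. The 6 differences that passed after social interaction kept their sign when any 1 library was left out of the log2 means, the widest range being that of Opalin in the vHipp, from -0.60 to -0.51. The 0 of the condition comparisons held under every alternative run, while over all genes edgeR called 1 and DESeq2 151 in those 36 comparisons. Without the 12 doubtful Nacc libraries no count of called genes of the group moved by over 1.5 times. At an unadjusted p under 0.05, Mobp, Cldn11, Mog and Olig2 appeared in the Nacc after social interaction, in place of 0 genes. The intervals of the condition differences were widest in the cortex, where the myelin genes varied most between mice.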
